A study of Mus musculus with 2 samples.

Results

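The 9 genes described here encode 6 cathepsins (Ctss, Ctsl, Ctsb, Ctsz, Ctsh and Ctsd), legumain (Lgmn), the alpha subunit of beta-hexosaminidase (Hexa) and cystatin C (Cst3). They were taken by name, 9 of the 25120 genes that had a column in either table, and all 9 had a column in both. Hexa encodes a glycosidase rather than a protease and Cst3 encodes a secreted inhibitor, so the set covers lysosomal enzymes and 1 inhibitor of such enzymes. The cells were from adult C57BL/6 mice that had received vehicle or 1 mg/kg of FGF21 daily over 3 days, and the tissue was the basolateral amygdala. The amygdalae of 3 mice made up each treatment's pool, which was dissociated with pronase and actinomycin D and sorted for tdTomato and, by Hoechst dye, for viability. The series concerns cells that express KLB, the co-receptor of FGF21, but the labels name no allele, so what drives tdTomato is not given in the sources used here. A pool yielded 1 library, which leaves no replicate check. Every interval below is a 95% interval that covers counting error only.

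Lysosomes are acidic compartments in which proteins, glycans and lipids are broken down. Cathepsins S, L, B, Z and H are cysteine proteases of the papain family, cathepsin D is an aspartic protease, and legumain is a cysteine protease that cuts after asparagine and can process cathepsins. Cystatin C binds and blocks papain-family cathepsins outside and inside cells. In the brain, cathepsin S is known mainly from microglia, the resident immune cells, where it takes part in antigen processing and can be secreted, and cystatin C is secreted by glia and by the choroid plexus.

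In the GENCODE vM21 annotation of GRCm38, Ctss (ENSMUSG00000038642) lies on chromosome 3 from 95526786 to 95556403 on the plus strand, with up to 8 exons. Ctsl lies on chromosome 13 from 64359337 to 64370890, Ctsd on chromosome 7 from 142375911 to 142388038, and Lgmn on chromosome 12 from 102394084 to 102439813, all on the minus strand. Cst3, a short gene of up to 3 exons, lies on chromosome 2 from 148871722 to 148875692, and Ctsz on chromosome 2 from 174427493 to 174439039, both on the minus strand. Ctsb on chromosome 14 from 63122462 to 63145923, Ctsh on chromosome 9 from 90054152 to 90076089 and Hexa on chromosome 9 from 59539540 to 59565109 are on the plus strand. Exons of Ctsb overlap those of Fdft1 on the opposite strand, exons of Ctsz overlap those of Nelfcd and exons of Hexa overlap those of Tmem202. Exons of Ctsl overlap those of Gm47123 and Gm49230, which had 27 UMIs together in the tables. Whether the counting used strand is not given in the sources used here, so reads of these pairs may not have been told apart. The partners had few UMIs (unique molecular identifiers, each 1 captured molecule), with 959 for Fdft1, 1089 for Nelfcd and 18 for Tmem202. The 8 placental relatives of Ctsl with a column had 27 UMIs together.

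Upstream sequence was available in the RefSeq table of GRCm38.p6 for 7 of the 9 genes, with 250 bases before each start. The palindrome CACGTG, the core of the element that the lysosomal regulator TFEB is known to bind, was searched because it reads the same on both strands and many lysosomal genes carry it. It stood in the 250 bases before a RefSeq start for 3 of the 7 genes, in 2 copies for Ctsd, 1 for Ctsl and 1 at the second of the RefSeq starts of Lgmn. In the GENCODE annotation, where these genes have starts farther out, only the outer Ctsd copy lay outside every gene. The inner Ctsd copy and the Ctsl copy were in annotated exons of these genes, and the Lgmn copy was in an intron of Lgmn. Of all 32851 promoters of the same length, 6.02% held it. The copies are shown with up to 10 bases on each side, 5′ to 3′ on the minus strand, with CACGTG in capitals and the distance of its first base before the RefSeq start.
Ctsd, 245 bases before the start, chr7:142388057-142388077: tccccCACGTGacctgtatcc
Ctsd, 98 bases before the start, chr7:142387910-142387935: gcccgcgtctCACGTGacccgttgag
Ctsl, 236 bases before the start, chr13:64370741-64370766: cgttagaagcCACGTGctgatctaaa
Lgmn, 49 bases before the second start, chr12:102439126-102439151: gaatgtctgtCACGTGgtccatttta

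The upstream sequence of Ctss, the protease with the highest microglial level, and the outermost part of that of Cst3, the highest transcript of all, held no CACGTG. They also held no GAGGAAG on either strand, a string that the myeloid factor PU.1 is known to bind. It was in 0 of the 7 genes and in 10.6% of all promoters. Both stretches held GAGGAA with another base after it, which the search did not count. The search therefore does not show that they lack a core for PU.1. These are matches of letters and not measured binding sites. The Ctss stretch is on the plus strand and the Cst3 stretch on the minus strand, each outside every annotated exon.
Ctss, chr3:95526536-95526785: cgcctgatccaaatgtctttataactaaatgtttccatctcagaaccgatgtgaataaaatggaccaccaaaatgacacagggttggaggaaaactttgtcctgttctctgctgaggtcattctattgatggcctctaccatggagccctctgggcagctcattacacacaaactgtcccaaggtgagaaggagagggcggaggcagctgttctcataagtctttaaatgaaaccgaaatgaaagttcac
Cst3, chr2:148875693-148875762: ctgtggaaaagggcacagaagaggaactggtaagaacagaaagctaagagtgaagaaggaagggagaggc

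The vehicle library gave 2336 used cells with a median of 4234 UMIs, and the FGF21 library 1938 cells with a median of 6840. Clusters were formed without the 9 genes and named from marker lists. Microglia-like cells numbered 1411 with vehicle and 889 with FGF21. Oligodendrocyte precursor-like (369 and 576) and astrocyte-like cells (99 and 192) were the next classes compared. The libraries separated within types: 1396 of the vehicle microglia-like cells were in 1 cluster and 859 of the FGF21 ones in another, and oligodendrocyte precursor-like cells were divided in the same way (350 and 489). Border macrophage-like, differentiating oligodendrocyte precursor-like, oligodendrocyte-like, mural-like, endothelial-like, choroid plexus-like and erythroid-like cells were described in both libraries and fibroblast-like cells in the vehicle library only. Levels are counts per 1000000 UMIs of a class (CPM). A UMI counts a captured molecule and not a stretch of transcript, so levels were not divided by gene length.

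The 9 genes made up 4.96% of all UMIs of vehicle microglia-like cells and 4.62% of those of FGF21 cells, and most of that was Cst3. Cst3 was the most abundant transcript of these cells in both libraries, at 33450 CPM (33300 to 33600) with vehicle and 32390 CPM (32240 to 32530) with FGF21. The 9 were not alike in abundance: by rank among all transcripts of the vehicle microglia-like cells they ran from 1 for Cst3 to 351 for Ctsh, and in the FGF21 cells from 1 to 560.

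Among the papain-family proteases, Ctss led with 7978 CPM with vehicle and 6499 CPM with FGF21, ranks 5 and 11. Ctsb, a broadly expressed cathepsin, followed with 2198 and 1788 CPM. Ctsz, a carboxypeptidase, had 608.9 and 552.5 CPM, and Ctsl, a potent endopeptidase, had 568.4 and 567.7 CPM. Ctsh, an aminopeptidase, was the lowest of the 9, with 373.9 and 266.6 CPM. Ctsz and Ctsl were neighbours in the order of levels. Their intervals overlapped in the FGF21 library (533.2 to 572.4 CPM for Ctsz, 548.0 to 587.8 CPM for Ctsl), and in the vehicle library they ended at 588.0 CPM for Ctsl and began at 589.0 CPM for Ctsz.

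The aspartic protease Ctsd had 2043 and 2041 CPM, next to Ctsb, below it with vehicle and above it with FGF21. Lgmn had 1678 and 1561 CPM and Hexa 700 and 580.8 CPM.

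Across single microglia-like cells, Cst3 and Ctss were found in nearly every cell and the low members in a part of them. No cell lacked a Cst3 UMI in either library, and 3 cells in each lacked Ctss. For Cst3 the 5th percentile, median and 95th percentile per cell were 19020, 32410 and 49990 CPM with vehicle and 17760, 30650 and 46900 CPM with FGF21. For Ctss these were 4021, 7650 and 12790 CPM with vehicle and 2731, 6169 and 9853 CPM with FGF21. The central ranges of the libraries thus overlapped widely for both genes. A Ctsh UMI was found in 69.5% of vehicle and 71.5% of FGF21 cells. After each cell was thinned to 2000 UMIs, to remove the difference in depth, the Ctsh shares were 48.2% of 1347 and 39.8% of 868 cells, with 64 and 21 shallower cells left out.

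**Figure D1:**
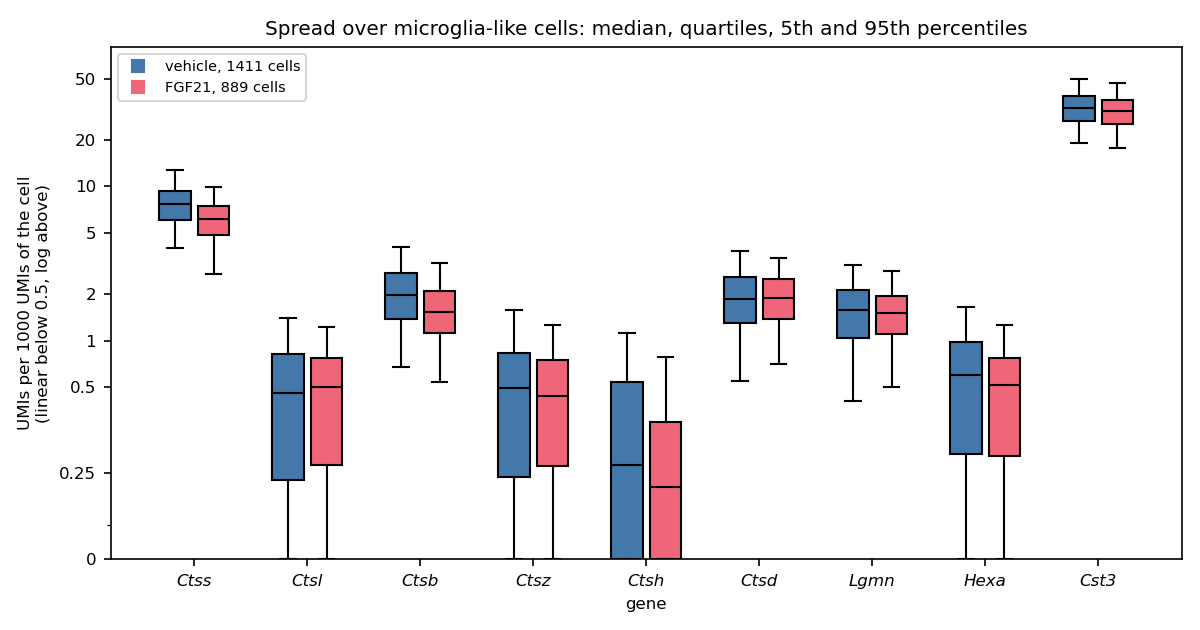
Spread of each gene over microglia-like cells, with genes on the x axis and UMIs per 1000 UMIs of the cell on the y axis (linear below 0.5, log above). Boxes are quartiles with the median, whiskers the 5th and 95th percentiles, in blue for 1411 vehicle and red for 889 FGF21 cells. Cst3 stands above all others, and the boxes of the libraries overlap for each gene.

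The members varied with each other only weakly from cell to cell. In the thinned cells the 36 pairs had Spearman correlations from -0.036 to 0.266 with vehicle and from -0.036 to 0.334 with FGF21, given as a description, since the cells of a library share their source. Ctss with Cst3 was the highest pair in both libraries, and Ctss with Ctsb the next, at 0.163 and 0.178. At this depth a thinned cell held on average 66.3 Cst3, 15.8 Ctss and 0.728 Ctsh UMIs with vehicle. Weak values between low genes are therefore no finding.

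Except for Ctsh in FGF21 erythroid-like cells, all 9 genes also had UMIs in every other described class, where their levels were lower except in border macrophage-like cells, for Ctsb and Hexa in both libraries and for Ctsh in that of FGF21. Microglia-like cells held 91.5% of all Lgmn UMIs of used vehicle cells and 85.6% of those of FGF21 cells, the highest share of the 9. For Ctss the shares were 89.8% and 83.3%. Ctsb was the most spread, with 76.1% and 61.5%, and Ctsl had 77.3% and 64.1%. Such shares depend on the make-up of a library: microglia-like cells were 60.4% of used vehicle and 45.9% of used FGF21 cells. Microglial markers, summed, had 86.8% and 77.0% of their UMIs there. A Ctss UMI was found in 98.6% of vehicle and 98.8% of FGF21 oligodendrocyte precursor-like cells, whose median depths were 6433 and 8900 UMIs. These shares were close to those of microglia-like cells (99.8% and 99.7%, at 4181 and 6033 UMIs), although the Ctss level was 973.9 and 800.2 CPM there. Presence of a UMI thus did not separate the classes, and levels are used below.

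**Figure D2:**
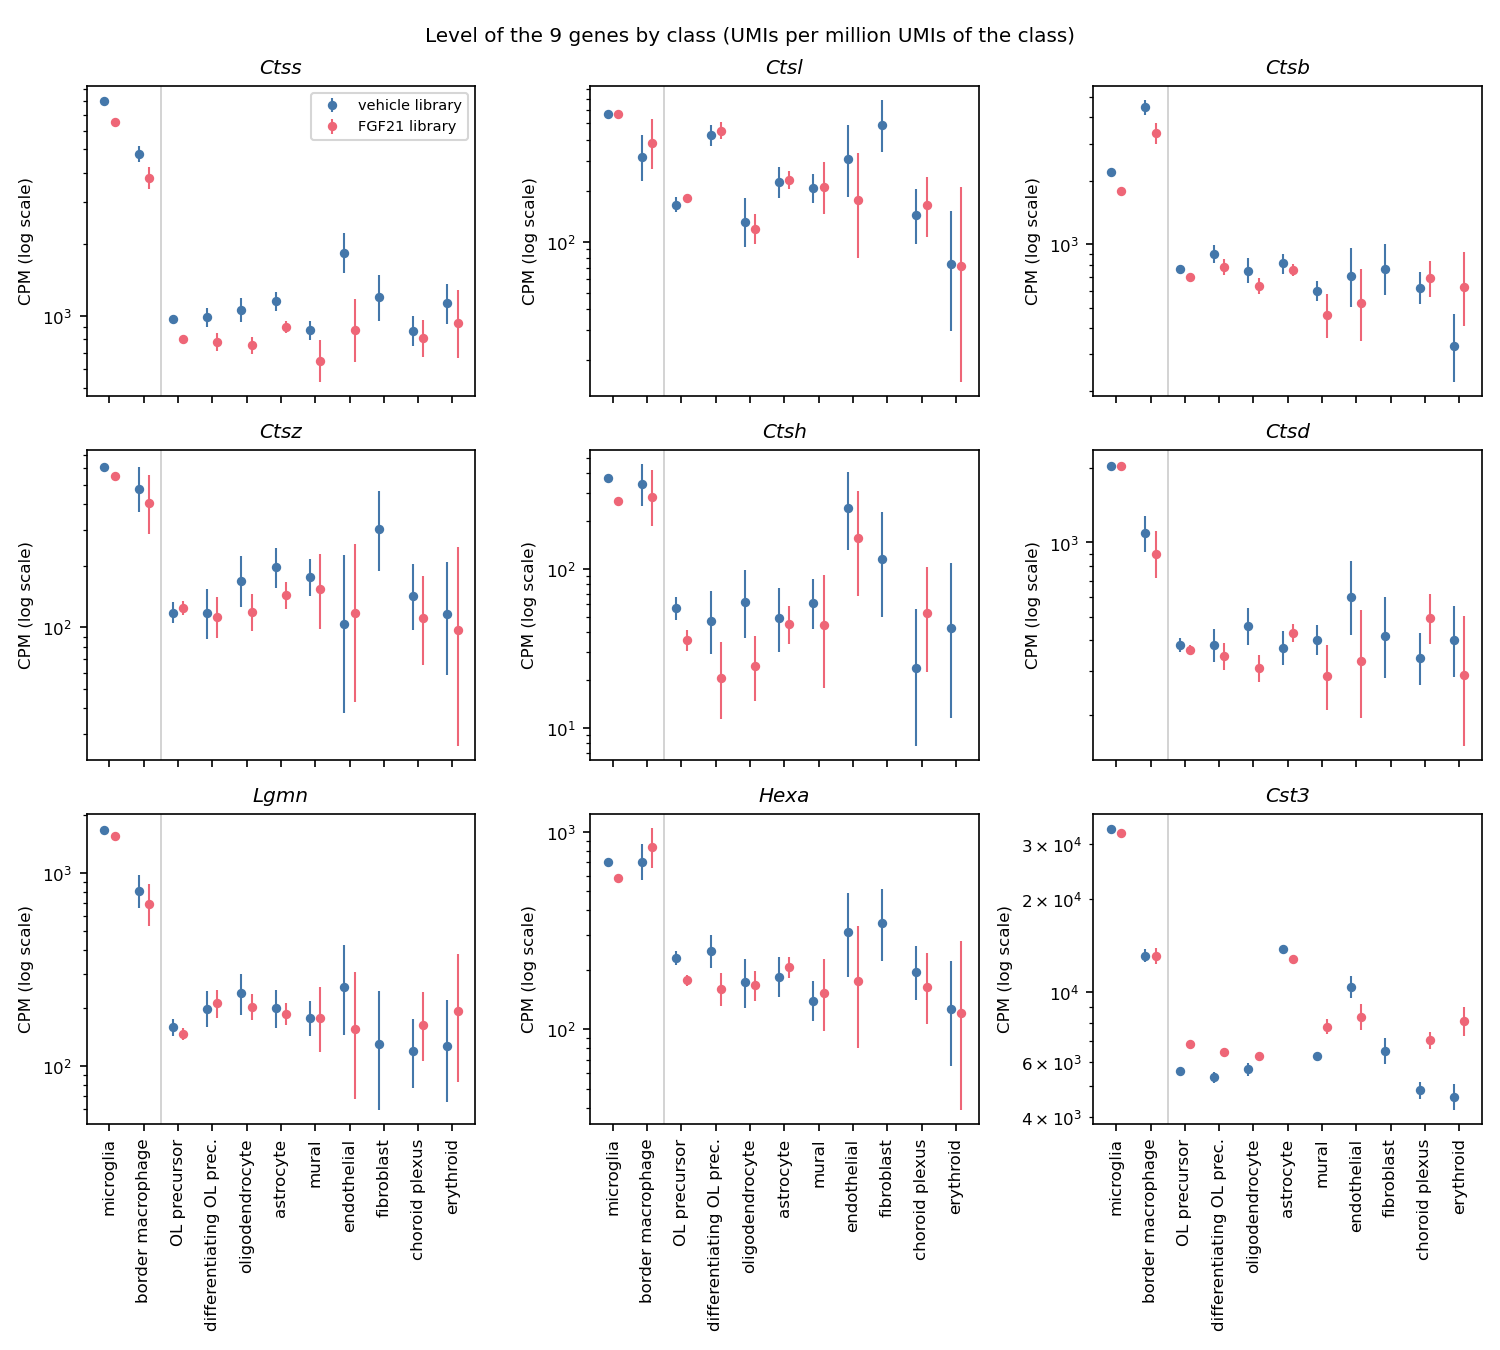
Level of each gene by class, 1 panel per gene, with classes on the x axis (OL, oligodendrocyte) and CPM on a log y axis. Points are the vehicle (blue) and FGF21 (red) libraries, bars are exact Poisson 95% intervals, and the grey line parts the macrophage classes from the rest. Cst3 in astrocyte-like cells (13790 and 12820 CPM) and Ctsl in differentiating oligodendrocyte precursor-like cells (425.5 and 453.3 CPM) stand above the other classes to the right of the line, as does Ctsl in vehicle fibroblast-like cells (490.7 CPM).

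RNA freed from broken cells gives UMIs in cells that do not express a gene, and RNA of 1 source keeps its genes in 1 ratio. The summed level of 13 microglial markers (P2ry12, Tmem119, Cx3cr1, Csf1r, Fcrls, Siglech, Gpr34, Olfml3, Selplg, C1qa, C1qb, C1qc and Sall1) in microglia-like cells was 48090 CPM with vehicle and 38790 CPM with FGF21. All 13 had UMIs in oligodendrocyte precursor-like and astrocyte-like cells, where Gpr34 was the lowest (48.9 to 115.5 CPM) and Csf1r the highest (1576 to 2131 CPM). In the classes other than macrophages the summed markers stood at 15.2% to 25.2% of that level with vehicle and at 16.6% to 22.8% with FGF21. Each gene was therefore divided by the microglial marker UMIs of the same class, and the result set relative to microglia-like cells of the same library. A value of 1 means that the gene stood to the markers as it does in microglia-like cells. The reference scales all genes of a class together: with the C1q genes alone, values outside macrophages were multiplied by 0.707 to 0.988 and those of border macrophage-like cells by 0.624 (vehicle) and 0.602 (FGF21). With Ctss alone, values outside macrophages were multiplied by 1.07 to 1.66, least in vehicle erythroid-like cells. Both ranges are over 17 profiles of class and library. How free RNA, doublets and low expression of the markers share in these UMIs was not tested.

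Ctss and Lgmn stayed below 1 in all of these classes. Ctss ran from 0.678 in mural-like to 0.932 in erythroid-like cells over 9 classes with vehicle, and from 0.602 in mural-like to 0.673 in choroid plexus-like cells over 8 classes with FGF21. Lgmn ran from 0.383 to 0.755 and from 0.492 to 0.736. In oligodendrocyte precursor-like cells Ctss was at 0.697 (0.667 to 0.728) with vehicle and 0.657 (0.635 to 0.680) with FGF21, and Lgmn at 0.543 (0.490 to 0.601) and 0.501 (0.465 to 0.541). The vehicle Ctss intervals held 1 in endothelial-like (0.747 to 1.12) and erythroid-like cells (0.760 to 1.14). With Ctss as the reference, Lgmn was above 1 in oligodendrocyte-like cells, at 1.06 (0.820 to 1.38) with vehicle and 1.12 (0.940 to 1.34) with FGF21, and in the FGF21 differentiating oligodendrocyte precursor-like (1.13) and mural-like cells (1.14), with intervals that held 1.

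Cst3 was farthest above the marker ratio in astrocyte-like cells, but not there alone. Its median over the classes was 0.954 with vehicle and 1.15 with FGF21. With vehicle its intervals lay above 1 in 3 of 9 classes and below 1 in 3. With FGF21 they lay above 1 in 7 of 8 classes and below 1 in 0, with mural-like cells at 1.44 (1.325 to 1.566). In astrocyte-like cells it was 2.08 (2.00 to 2.17) with vehicle and 1.91 (1.86 to 1.96) with FGF21, the highest of all classes in both libraries. Astrocyte-like cells had 13790 CPM (13440 to 14160) of Cst3 with vehicle and 12820 CPM (12610 to 13020) with FGF21. The other classes outside macrophages ran from 4628 CPM in erythroid-like to 10410 CPM in endothelial-like cells with vehicle, and from 6262 CPM in oligodendrocyte-like to 8326 CPM in endothelial-like cells with FGF21. The small FGF21 endothelial-like class (16 cells) also held astrocyte markers at 6610 CPM, against 929.1 CPM in the 31 vehicle cells, and their part in its Cst3 level was not tested.

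Ctsl was the member with the largest values of this ratio outside macrophages. In differentiating oligodendrocyte precursor-like cells, which carry Enpp6 and Bmp4, it was at 4.27 (3.68 to 4.96) in 39 vehicle cells and 4.33 (3.84 to 4.89) in 38 FGF21 cells. Its level there, 425.5 CPM with vehicle and 453.3 CPM with FGF21, approached that of microglia-like cells. With Ctss in place of the markers the ratio was 6.04 and 6.64, and with the C1q genes it was 3.63 and 3.22. The less mature oligodendrocyte precursor-like cells had 165.4 and 180.2 CPM, and the oligodendrocyte-like cells had 131.2 and 119.6 CPM. The level of the class between them was therefore above that of its neighbours in both libraries, with intervals that did not overlap theirs. The 5 cells with the most Ctsl UMIs held 41.3% of the UMIs of the class with vehicle and 33.3% with FGF21. The median cell had 342.3 and 377.6 CPM, against 141.3 and 167.7 CPM in oligodendrocyte precursor-like and 89.1 and 86.0 CPM in oligodendrocyte-like cells. At 2000 UMIs per cell, a Ctsl UMI was found in 36.8% (21.8 to 54.0) of the vehicle cells, an interval that overlapped those of oligodendrocyte precursor-like (30.4%, 25.7 to 35.4) and oligodendrocyte-like cells (21.1%, 9.55 to 37.3). With FGF21 the share was 60.5% (43.4 to 76.0), above the 30.4% (26.7 to 34.4) and 20.0% (11.9 to 30.4) of these classes. A difference between the vehicle shares was thus not detectable at this depth. Vehicle fibroblast-like cells had a ratio of 4.27 too, on 34 UMIs in 19 cells (3.02 to 6.04). Mural-like cells, at 2.25 and 2.23, and astrocyte-like cells, at 2.01 and 1.98, were also above 1. Erythroid-like cells, with 7 and 3 Ctsl UMIs, had 0.856 (0.406 to 1.803) and 0.559 (0.179 to 1.74).

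Ctsb was above the marker ratio in most classes outside macrophages, with intervals above 1 in 7 of 9 with vehicle and 7 of 8 with FGF21. It was 1.99 and 2.09 in oligodendrocyte precursor-like cells, 2.33 and 2.38 in differentiating ones, 1.81 and 1.97 in oligodendrocyte-like and 1.86 and 2.03 in astrocyte-like cells, vehicle first. Its level in these 4 glial classes was 749.2 to 898.4 CPM with vehicle. Outside glia it was 1.83 and 2.09 in choroid plexus-like, 1.69 and 1.54 in mural-like and 1.72 in vehicle fibroblast-like cells. The endothelial-like intervals held 1 in both libraries. In vehicle erythroid-like cells Ctsb was at 0.980 (0.684 to 1.41), and in those of FGF21 at 1.54 (1.03 to 2.29). Hexa was also above 1 in both of the larger glial classes. Its values were 1.87 and 1.63 for oligodendrocyte precursor-like cells, and for astrocyte-like cells 1.33 and 1.71. This was not particular to glia: outside macrophages the Hexa intervals lay above 1 in 6 of 9 classes with vehicle and 6 of 8 with FGF21.

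Ctsd and Ctsz stood close to the markers in oligodendrocyte precursor-like cells, Ctsd at 1.07 (1.00 to 1.15) and 0.961 (0.914 to 1.01), and Ctsz at 1.10 (0.978 to 1.25) and 1.20 (1.10 to 1.31). In astrocyte-like cells Ctsd was 0.924 and 1.02, with intervals that held 1 in both libraries. Ctsz was 1.63 and 1.26 there. Ctsh was the rarest member in the glial classes other than microglia, at 20.7 to 62.1 CPM. It was higher in endothelial-like cells, at 240.9 CPM with vehicle and 156 CPM with FGF21, on 14 and 8 UMIs, and its ratio to the markers there was 2.56 (1.504 to 4.35) and 2.88 (1.43 to 5.81). In FGF21 erythroid-like cells no Ctsh UMI was found, which allows up to 88.9 CPM.

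Values above the marker ratio were not particular to these genes. In oligodendrocyte precursor-like cells 3 of the 9 (Ctsb, Ctsl and Hexa) were at 1.5 or more in each library, against 93.2% of 9773 genes with vehicle and 92.9% of 9904 genes with FGF21. In astrocyte-like cells 4 of the 9 were, against 90.0% and 90.7%.

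**Figure D3:**
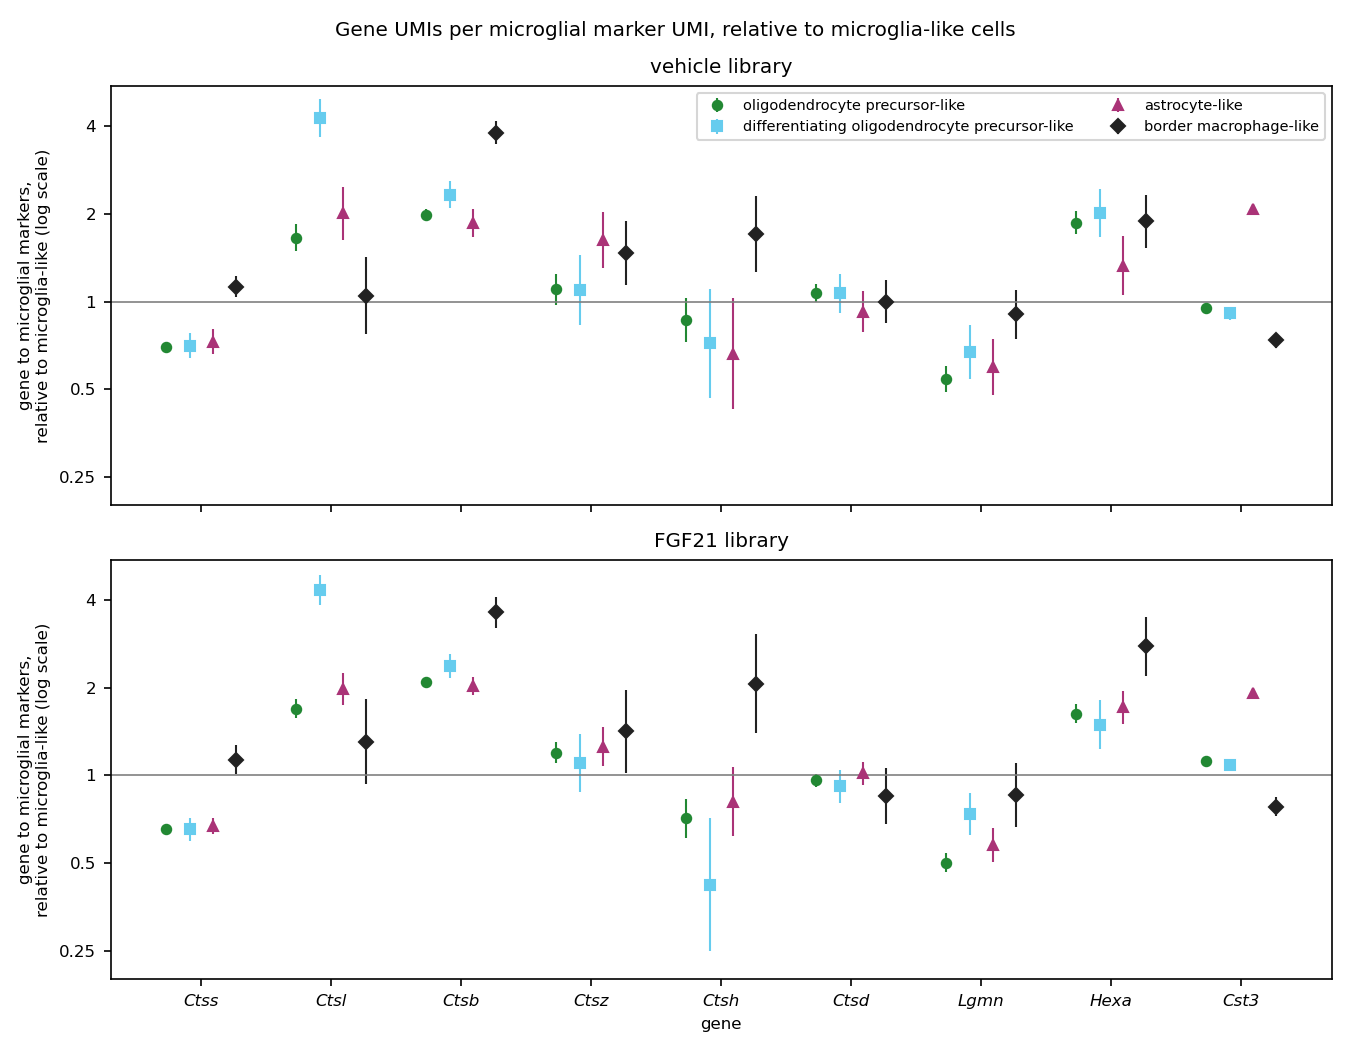
Gene UMIs per microglial marker UMI in 4 classes, relative to microglia-like cells of the same library, with genes on the x axis and the ratio on a log y axis, vehicle above and FGF21 below. Bars are 95% counting intervals and the line at 1 marks the ratio of microglia-like cells. Ctss and Lgmn lie below 1 in the glial classes, Ctsl of differentiating oligodendrocyte precursor-like cells lies above 4, and Ctsb of border macrophage-like cells is the highest value of its gene in both libraries.

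A library-wide estimate of background was made as well. Marker lists of cell types were summed in classes of another type and divided by their level over all used cells, which gave a median of 27.7% with vehicle and 32.7% with FGF21 over 13 pairs of list and class. The pairs ran from 19.94% to 41.15% with vehicle and from 22.34% to 49.68% with FGF21. Microglial markers in oligodendrocyte precursor-like cells were among the pairs, at 27.66% (the vehicle median) and 36.65%. For these cells the estimate thus partly repeats the marker ratio and is not separate from it. With the median share of the library's profile as background, 138.7% of the Ctss UMIs and 174.7% of the Lgmn UMIs of vehicle oligodendrocyte precursor-like cells were accounted for, and 125.5% and 160.0% of those of FGF21 cells. A share above 100% means that more UMIs were predicted than found. For Ctsb the shares were 57.4% and 53.4%, for Ctsl 67.6% and 63.2%, and for Hexa 58.7% and 62.7%. For Cst3 the share was 105.7% with vehicle and 83.5% with FGF21, which left 0 of 13624 and 5743 of 34752 UMIs. The UMIs left depend on the background share, and shares other than the median were not run. In astrocyte-like cells 42.8% and 44.5% of the Cst3 UMIs were accounted for, and in microglia-like cells 17.7% and 17.6%.

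Border macrophage-like cells, which carry Mrc1, Lyve1 and F13a1 and also genes of MHC class II, were the one class with members above the microglial level. The class also held neutrophil markers at 2572 CPM with vehicle and 1435 CPM with FGF21 (4 of 5 with UMIs in each library, Ly6g at 0), against at most 24.1 CPM in the other classes. Monocyte or dendritic cell markers stood at 605.2 CPM (5 of 6 with UMIs) and 898.2 CPM (3 of 6). They were not particular to this class, since endothelial-like cells had 516.1 CPM with vehicle and 214.5 CPM with FGF21. Ctsb was at 4456 CPM (4103 to 4831) in 47 vehicle cells and 3363 CPM (2997 to 3761) in 22 FGF21 cells, against 2198 and 1788 CPM in microglia-like cells. Per microglial marker, which stood at 53.3% of the microglial level in the vehicle cells, Ctsb was at 3.80 (3.48 to 4.16) and 3.64 (3.22 to 4.11). The Ctsb values depended on the clusters and the reference, from 2.375 with the C1q genes as the reference to 4.95 at Leiden resolution 2.0 with vehicle, and from 2.19 to 6.38 with FGF21. Hexa was at 703.5 and 832.5 CPM, close to microglia-like cells with vehicle and above them with FGF21, and per marker at 1.89 and 2.77, which were 1.18 and 1.67 with the C1q genes as the reference and 2.40 and 4.39 at Leiden resolution 2.0. Ctsh was at 340.4 and 284.8 CPM, with intervals that held the microglial level in both libraries. Cst3, at 13130 and 13080 CPM, was below the marker ratio, at 0.736 (0.695 to 0.781) and 0.781 (0.726 to 0.840). That of FGF21 became 1.04 (0.957 to 1.13) when the C1q genes were left out of the markers. Ctss was at 4789 and 3812 CPM, and its ratio of 1.13 in both libraries was on the other side of 1 with finer clusters (0.896 and 0.898). Without the 13 vehicle and 7 FGF21 cells that had a UMI of the neutrophil or the monocyte or dendritic cell markers, an alternative chosen after the data were seen, Ctsb was at 4842 and 4177 CPM, Hexa at 815 and 885.4 CPM and Ctsh at 443.5 and 346.5 CPM. The Ctsb ratio to the microglial markers was then 3.81 and 3.85, and that of Ctss 1.12 and 0.958. In all, 3 of the 9 genes were at 1.5 or more over the marker ratio in each library, against 60.5% of 8946 genes with vehicle and 66.2% of 8735 genes with FGF21.

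In microglia-like cells no member differed by 1.5-fold or more between the libraries, a fold that 12.1% of 11373 genes passed on the higher and 5.26% on the lower side in the FGF21 library. Ctsh was the farthest from 1, with an FGF21 to vehicle ratio of 0.713 (0.667 to 0.762). Ctsb at 0.814 (0.792 to 0.835), Ctss at 0.815 (0.804 to 0.826) and Hexa at 0.830 (0.792 to 0.869) were next. Ctsz was at 0.908 (0.864 to 0.953), Lgmn at 0.9302 (0.904 to 0.958) and Cst3 at 0.968 (0.962 to 0.974). Ctsd at 0.999 (0.974 to 1.02) and Ctsl at 0.999 (0.951 to 1.05) were level. Thus 7 of the 9 intervals lay below 1 and 0 above it, where over all genes 19.2% lay below and 24.8% above. The 7 of 9 cannot be weighed against these shares, because a counting interval narrows as UMIs rise. Ctsh, the least abundant member, had 2179 UMIs with vehicle and 1482 with FGF21, and all genes included far less abundant ones. Genes of like abundance were not compared. The Ctsh, Ctsb, Ctss and Hexa ratios stayed below 1 under every alternative run. With 1 library per treatment, the treatment cannot be told apart from the pools and their handling.

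Some of the lower values stood near that of the microglial markers, whose sum had a ratio of 0.807 (0.802 to 0.811) in the same cells. The 9 genes summed had 0.932 (0.927 to 0.937). Relative to the markers, Ctss was at 1.01 (0.995 to 1.02), Ctsb at 1.01 (0.982 to 1.04) and Hexa at 1.03 (0.982 to 1.08). Ctsh was below the markers, at 0.884 (0.827 to 0.945). The rest were above them, with Ctsz at 1.125 (1.07 to 1.18), Lgmn at 1.15 (1.12 to 1.19), Cst3 at 1.20 (1.19 to 1.21), Ctsd at 1.24 and Ctsl at 1.24. After subtraction of the background the summed ratio was 1.00 (0.994 to 1.01), that of Cst3 1.03 (1.03 to 1.04) and that of Lgmn 1.01 (0.981 to 1.04), so the direction of these did not hold under that step. The median log2 ratio of the 9 genes was -0.14, against 0.03 over all 11373 genes.

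Different clusters held most microglia-like cells of each library, and the few cells in the cluster of the other library had their own values. The 15 vehicle cells in the mainly FGF21 cluster had 3430 CPM (2997 to 3908) of Ctsb and 1108 CPM (868.4 to 1393) of Ctsz, above both the 1396 vehicle cells (2184 and 603.1 CPM) and the 859 FGF21 cells (1792 and 554.4 CPM). Their Ctss level was 8150 CPM, close to the 7976 CPM of the other vehicle cells. The 30 FGF21 cells in the mainly vehicle cluster, with a median of 2510 UMIs, had 4762 CPM (4289 to 5272) of Ctss and 26480 CPM of Cst3, below both main groups (6524 CPM of Ctss and 32470 CPM of Cst3 in the 859 FGF21 cells).

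In oligodendrocyte precursor-like cells Cst3 was higher in the FGF21 library, at 6829 CPM against 5591 CPM, a ratio of 1.22 (1.20 to 1.25). Subtraction of the background at the median share gave no ratio, since it left 0 Cst3 UMIs in the vehicle cells. The same order was seen in differentiating oligodendrocyte precursor-like (5350 and 6464 CPM, vehicle first), oligodendrocyte-like (5672 and 6262 CPM), mural-like (6235 and 7764 CPM), choroid plexus-like (4853 and 7018 CPM) and erythroid-like cells (4628 and 8095 CPM). It was the reverse in astrocyte-like cells, with a ratio of 0.929 (0.901 to 0.958), and in endothelial-like cells (10410 and 8326 CPM). Over the same oligodendrocyte precursor-like cells the microglial markers were lower in the FGF21 library, at 0.862 (0.848 to 0.877). All 10 astrocyte markers had UMIs in oligodendrocyte precursor-like cells of both libraries. Astrocyte-like cells, the class next to microglia-like cells in Cst3 level among the larger ones, made up 4.24% of vehicle and 9.91% of FGF21 cells, and the astrocyte markers in oligodendrocyte precursor-like cells summed to 1876 and 2242 CPM. Their part in the Cst3 difference was not tested.

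Ctsh, at 56.6 CPM with vehicle and 35.6 CPM with FGF21, was the only member past 1.5-fold in oligodendrocyte precursor-like cells, with a ratio of 0.628 (0.500 to 0.789) on 138 and 181 UMIs. Of 11396 genes in these cells, 4.81% passed on that side and 5.9% on the other. Its share of the microglial marker ratio was 0.864 and 0.712, so both libraries were at or under what the markers carry. This depended on the reference: with Ctss in place of the markers it was 1.24 (1.04 to 1.48) and 1.08 (0.925 to 1.27). Hexa was at 0.774 (0.696 to 0.862), Ctss at 0.822 (0.781 to 0.865) and Ctsb at 0.915 (0.865 to 0.969), while the intervals of Ctsd, Ctsz, Ctsl and Lgmn held 1. After subtraction of the background the Ctsb ratio was on the other side of 1, at 1.08 (0.989 to 1.17) on 794 and 1659 UMIs left. It was 1.51 for Ctsd on 53 and 155 UMIs left, and 4.32 for Ctsz on 17 and 140.

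In astrocyte-like cells no member was 1.5-fold apart, against 11.9% of 6128 genes on the higher and 8.14% on the lower side. Ctss was at 0.782 (0.701 to 0.873), as in the other classes below 1. Ctsz was at 0.730 (0.557 to 0.964), on 80 and 173 UMIs, and at 1.01 (0.714 to 1.45) with stricter limits on cells. The intervals of Ctsb, Ctsd, Ctsl, Ctsh, Hexa and Lgmn held 1, though subtraction of the background moved Ctsd from 1.15 to 8.27 and Hexa from 1.12 to 2.04. The subtracted values rest on few UMIs left, 5 and 111 for Ctsd and 20 and 114 for Hexa, vehicle first. With 20 and 54 UMIs the interval of Ctsh ran from 0.537 to 1.61, so a 1.5-fold difference was not detectable at this depth.

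**Figure D4:**
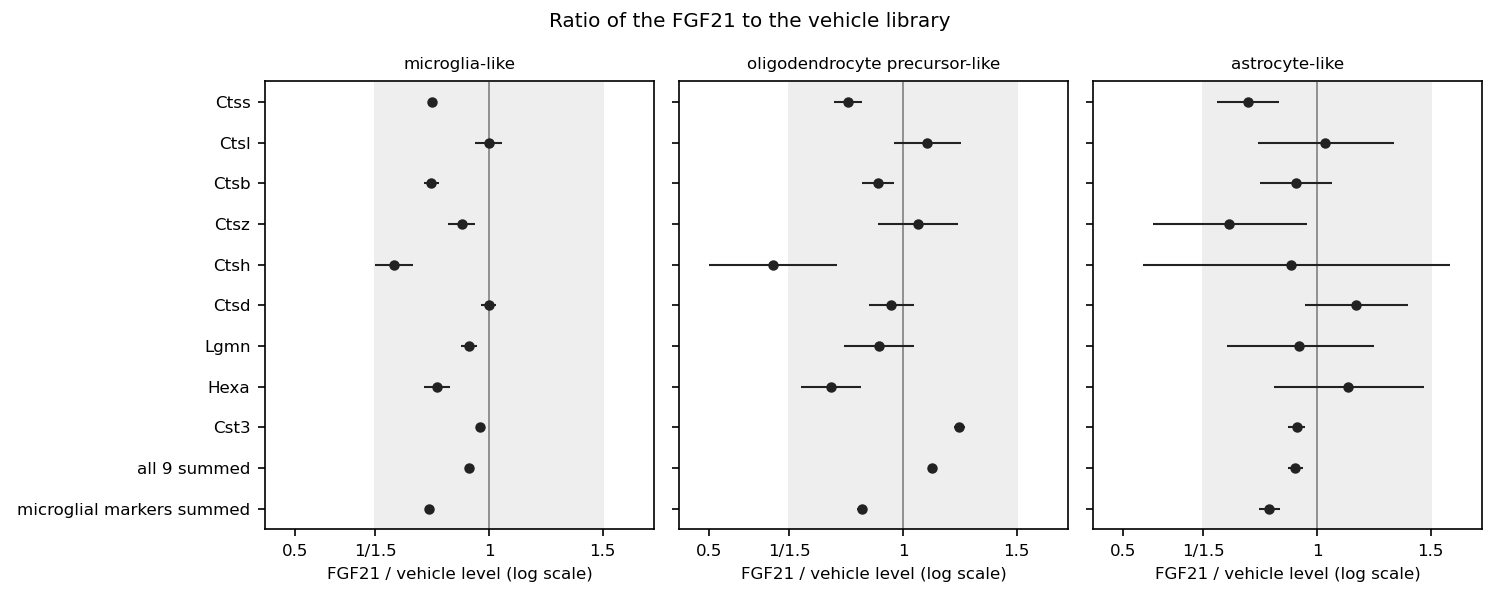
Ratio of the FGF21 to the vehicle library for each gene, the 9 genes summed and the 13 microglial markers summed, in 3 classes, on a log x axis. Bars are 95% counting intervals, the line marks 1 and the grey band the range within 1.5-fold. Cst3 lies above 1 in oligodendrocyte precursor-like cells (1.22) and below it in the other 2 panels, and Ctsh of oligodendrocyte precursor-like cells (0.628) lies outside the band.

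Other genes of the lysosome were taken from 8 lists with 94 genes, of which 88 had a column. In microglia-like cells 78 had at least 50 UMIs, and 2 were 1.5-fold or more higher and 2 lower in the FGF21 library, against 12.1% and 5.26% of all genes. Those higher were the alpha-galactosidase gene Gla (7.21 and 12.1 CPM, vehicle first) and the sorting receptor gene Igf2r (3.95 and 7.02 CPM). Those lower were Cst7, which encodes cystatin F (11.7 and 7.38 CPM), and the transcription factor gene Mitf (42.2 and 26.8 CPM). In oligodendrocyte precursor-like cells 1 of 77 was higher, Naaa, an amidase gene (12.3 and 30.5 CPM), and 1 lower, the metal transporter gene Slc11a1 (29.1 and 13.8 CPM), against 5.9% and 4.81% of all genes. In astrocyte-like cells 5 of 64 were higher and 3 lower, against 11.9% and 8.14% of all genes. These genes were chosen for naming after their values were seen.

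Among the most abundant genes of each list, ratios in microglia-like cells ran wider than those of the 9. Cst7, at 0.632 (0.418 to 0.945), and Ctsc were below all of them and Cstb above. Ctsc, a cathepsin that activates other proteases, was at 0.690 (0.650 to 0.733), with 463.2 CPM for vehicle and 319.7 CPM for FGF21. Grn, which encodes progranulin, was at 0.746 (0.726 to 0.767) and Tpp1, a peptidase gene, at 0.762 (0.721 to 0.804). Psap, which encodes the precursor of the saposins, was at 0.992 (0.973 to 1.01) on 3575 and 3546 CPM, and Ctsa, a carboxypeptidase gene, at 0.943 (0.903 to 0.986). The mannosidase gene Man2b1 was at 0.839 and the acid phosphatase gene Acp2 at 0.977. Of the membrane protein genes, Laptm5 was at 0.843 and Lamp1 at 0.933, and of the proton pump Atp6v0b was at 0.923 and Atp6ap1 at 0.912. The sorting receptor genes Sort1 and M6pr were at 0.743 and 0.863. Cstb, which encodes the intracellular inhibitor stefin B, was at 1.40 (1.19 to 1.66), with 43.6 and 61.2 CPM, far less abundant than Cst3. Ctsc had its highest level over both libraries in border macrophage-like cells, at 1150 CPM against 393.1 CPM in microglia-like cells. Of 80 genes of these lists, 18 were highest in microglia-like and 21 in border macrophage-like cells, and over 13581 genes the shares were 7.62% and 9.79%.

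The 3 genes whose level followed each member most closely were taken from 8409 genes over 21 profiles of class and library, by Pearson's r on log2 of CPM plus 10. For Ctss they were Csf1r (0.991), C1qc (0.983) and Ly86 (0.983). For Ctsd they were Cx3cr1 (0.967), Laptm5 (0.961) and Csf1r (0.959), and for Lgmn Laptm5 (0.972), C1qb (0.965) and Fcrls (0.957). Ctsb was closest to Fcgr2b (0.954), Ccl6 (0.949) and Ogfrl1 (0.942), and Hexa to Grn (0.951), Ogfrl1 (0.947) and Fcgr2b (0.943). Ctsz had Grn (0.918), Cd164 (0.917) and Dusp6 (0.913), Ctsh had Rap1b (0.944), Lpar6 (0.931) and B2m (0.930), and Cst3 had Cx3cr1 (0.896), Cd37 (0.896) and Ncf1 (0.893). Ctsl had the lowest top value among the 9, with Pdia3, a gene of protein folding in the endoplasmic reticulum, at 0.890, followed by Scamp2 (0.851) and Elf1 (0.832). The profiles share libraries and background RNA, so these values are a description only.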

How the data were processed

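The assay was BD Rhapsody whole transcriptome sequencing of single cells, in 2 libraries grouped as vehicle and FGF21 by the labels' treatment. The deposited values were raw counts of UMIs per cell and gene, corrected by the RSEC step of version 1.9.1 of the BD WTA Rhapsody Analysis Pipeline, per the file headers. The genome build was GRCm38, per the submitters' processing notes. For the annotation, counting strand and cell calling, the setting is not given in the sources used here. The vehicle table held 2925 barcodes with 11130580 UMIs and that of FGF21 held 2455 barcodes with 14585503 UMIs. The libraries shared 12 cell indices.

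A cell needed 500 UMIs, 300 genes and a mitochondrially encoded share of no more than 25%, and 18 and 13 doublets called by Scrublet in scanpy (1.11.5) were removed, 0.720% of the kept cells. Cells of both libraries were clustered together, with no integration, on 2000 variable genes without the 9 genes, with 15 neighbours in 30 principal components and a Leiden resolution of 1.0, into 15 clusters. A cluster was named when the mean z-score of its best marker list led the next by 0.5, with at least 3 markers found in 10% of its cells. A further cluster (21 and 32 cells) stayed unnamed and 10 T or NK cell-like cells were too few. Classes with 10 cells in a library were described and those with 50 in each were compared.

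UMIs were summed per class and library. CPM have exact Poisson intervals, shares exact Clopper-Pearson intervals and ratios exact conditional-binomial intervals, which cover counting error only. Ratios over all genes were limited to those with 50 UMIs or more in the libraries together. With 1 library per treatment, and cells not being replicates, there is no p-value. The ratio and marker steps were run on simulated Poisson counts, which checks the calculation and not the spread between libraries. In the marker step the simulated class held microglial RNA only, unlike the real classes. All 9 genes were named in each class, with the 2 most abundant genes of each lysosome list in microglia-like cells and the 3 genes most correlated with each member among those with at least 500 UMIs; further genes are named as chosen afterwards, and 1 gene of these lists is not reported here. The members and lists were chosen with earlier results of these data known. Alternatives were other clusterings, cell limits, scalings, gene minimums, reference markers, thinning to 2000 UMIs and background subtraction. Ctss as the reference and a border macrophage-like class without cells carrying neutrophil, monocyte or dendritic cell markers were added after the data were seen.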

Additional observations from a re-analysis of the deposited data

Results flagged for a closer look

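Cst3 differed between the libraries in opposite directions by class. Its ratio of FGF21 to vehicle was 0.968 in microglia-like and 0.929 in astrocyte-like cells, and 1.22 in oligodendrocyte precursor-like cells, with intervals on opposite sides of 1. The difference between the classes was not tested. Over the alternatives the ratio ran from 0.947 to 1.035 in microglia-like, from 0.918 to 0.970 in astrocyte-like and from 1.20 to 1.23 in oligodendrocyte precursor-like cells. The last range lacks the background subtraction, which gave no value because at the median share it left 0 vehicle UMIs against 5743 with FGF21. Other background shares were not run.

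The barcodes left out by the limits on cells and as doublets (589 vehicle, 517 FGF21) also held the 9 genes, and 2 genes were higher in those of the FGF21 library. Cst3 was at 9337 CPM with vehicle and 11310 CPM with FGF21, a ratio of 1.21 (1.17 to 1.26). Lgmn was at 259.8 and 333 CPM, a ratio of 1.28 (1.01 to 1.62). The intervals of the other 7 genes held 1. The left-out barcodes had erythroid markers at 92560 and 25330 CPM, and choroid plexus markers (5 of 6 with UMIs in each library) at 378.4 and 2672 CPM, most of it Ttr. The part of either in these levels was not tested.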

How the results depend on the processing

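Each treatment had 1 library, so nothing here measures the spread between samples, and no paired analysis was possible because there were no replicates. Of 323 alternative values of FGF21 to vehicle ratios, 284 moved by less than their counting error. Some values whose main interval held 1 crossed to its other side. With the background subtracted, these included Ctsd (1.083) and Ctsl (1.062) in microglia-like and Ctsb (1.094) in astrocyte-like cells. Lgmn in thinned oligodendrocyte precursor-like cells was at 1.128. Values whose main interval did not hold 1 changed direction in the 5 cases named next. With the background subtracted, the ratio in microglia-like cells was 1.035 for Cst3, 1.013 for Lgmn and 1.000 for the 9 genes summed, and that of Ctsb in oligodendrocyte precursor-like cells was 1.077. With at least 1000 UMIs, 500 genes and at most 10% mitochondrial UMIs, Ctsz in astrocyte-like cells was at 1.008. The summed ratio in microglia-like cells was 0.938 with those limits, 0.918 with cells weighted equally, 0.949 without mitochondrial, ribosomal protein and haemoglobin genes in the total, 0.912 with scaling to the median ratio and 0.916 in thinned cells. In astrocyte-like cells it was 0.952 with the stricter limits and 0.991 with background subtracted. In oligodendrocyte precursor-like cells subtraction gave 3.52. At the median share it left 0 UMIs of Ctss, Ctsh and Lgmn in both libraries, and of Cst3 0 with vehicle and 5743 with FGF21. Subtraction put 4 members in astrocyte-like and 3 in oligodendrocyte precursor-like cells past 1.5-fold. Some of these rest on few UMIs left, such as 5 of Ctsd in vehicle astrocyte-like and 17 of Ctsz in vehicle oligodendrocyte precursor-like cells. Over all genes, 1979 were past 1.5-fold in microglia-like cells, and 781 with at least 200 UMIs. For oligodendrocyte precursor-like cells the count was 1220, with 1937 at 20 UMIs and 364 at 200, and for astrocyte-like cells it was 1226, with 2617 and 131.

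Of 661 alternative values relative to the microglial markers, 497 stayed within counting error. Some values whose main interval held 1 crossed to its other side. In vehicle oligodendrocyte precursor-like cells, Ctsh went from 0.864 to 1.24 with Ctss as the reference. Ctsz there went from 1.10 to 0.933 with the C1q genes as the reference. Values whose main interval did not hold 1 crossed it in the 17 cases named next. With the C1q genes as the reference, Ctss in border macrophage-like cells was at 0.703 (vehicle) and 0.6825 (FGF21), Ctsz there at 0.917 and 0.854, Ctsz in FGF21 astrocyte-like and oligodendrocyte precursor-like cells at 0.943 and 0.912, Cst3 in vehicle mural-like cells at 0.951 and in FGF21 oligodendrocyte precursor-like cells at 0.857, and Ctsd in vehicle oligodendrocyte precursor-like cells at 0.905. Without the C1q genes, Cst3 was at 1.04 in FGF21 border macrophage-like and 1.02 in vehicle oligodendrocyte precursor-like cells. With Ctss as the reference, the latter was 1.37 and Ctsh in FGF21 oligodendrocyte precursor-like cells 1.08. Ctss in border macrophage-like cells was at 0.896 and 0.898 at Leiden resolution 2.0 and at 0.994 with vehicle cells weighted equally, and that of FGF21 at 0.958 without cells that had neutrophil, monocyte or dendritic cell marker UMIs. The cause was not tested. Allowing the 9 genes among the variable genes selected 0 of them, so it could not test whether the values depend on them. Its 30 FGF21 to vehicle ratios and 65 values relative to the markers count among those within counting error.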
